A study of Mus musculus with 28 samples.

Results

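Heat shock chaperones were compared between whole vessel walls and dissociated cells of the mouse arteriovenous fistula (AVF), in which a jugular vein joined to the carotid artery remodels under arterial flow. The 10 members, Hspa1a, Hspa1b, Hspa8, Dnajb1, Dnaja1, Hspb1, Hsph1, Bag3, Hspd1 and Hsp90aa1, were found by gene symbol among 56980 genes of the bulk RNA-seq table and 32285 genes of the single-cell matrices, and each matched a single entry in both. All mice were C57BL/6 with a subtotal nephrectomy, so the unoperated contralateral veins came from animals that also had reduced kidney function and a fistula on the other side. The bulk libraries came from 7 contralateral veins (5 female, 2 male), 8 early AVFs at day 3 (3 female, 5 male), 5 mid AVFs at day 10 (3 female, 2 male) and 5 late AVFs at day 21 (3 female, 2 male). These days are nominal, from the labels, and the paper gives a mean and spread of harvest days for each AVF group. The 3 single-cell libraries, contralateral, early and late, were each made from pools of vessels of both sexes. The early and late ones were taken on average somewhat later after surgery than the bulk AVFs of the same name. For contralateral veins no harvest day was given in either assay, so matched names cannot be taken as matched days.

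The assays differed in what happened before RNA was stabilised. Bulk vessels were ground to powder in a cryogenic mill and extracted. Vessels for single cells were digested with shaking for 90 min at 37 °C in an enzyme mix, then for 5 min with Accumax, and red cells were lysed. Only the dissociated cells had the warm incubation, and the groups otherwise shared strain, surgery and kidney reduction. Dissociation, the 3' counting chemistry, the loss of cell types on digestion and, for the AVFs, the later day all separate the assays together and cannot be told apart here.

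Heat shock proteins keep other proteins folded. The HSP70 proteins bind unfolded stretches and are driven by J-domain cochaperones that deliver clients and by exchange factors that release them, while HSP90 finishes the folding of kinases and receptors, small heat shock proteins hold unfolding clients, and chaperonins fold proteins inside a closed chamber. Under heat and other protein stress the factor HSF1 binds heat shock elements, tandem inverted repeats of the letters GAA, and raises the inducible members within minutes to hours. Constitutive members such as Hspa8 are abundant in unstressed cells.

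The promoter of the inducible HSP70 genes is printed because these genes differed most of the members between the assays in each library, and that of Hspb1 because its bulk and single-cell values went opposite ways. The sequences are from RefSeq on GRCm38.p6, written 5' to 3' on the gene's strand, and the capitals mark the heat shock element letters GAANNTTC. For Hspa1a the stretch was chr17:34972207-34972306 on the minus strand, from 150 to 51 bases before the start. For Hspa1b it was chr17:34959289-34959388 on the minus strand, and 100 of its 100 bases were identical to those of Hspa1a, so the sequence is given once. For Hspb1 it was chr5:135887779-135887858 on the plus strand, from 140 to 61 bases before the start.
Hspa1a and Hspa1b: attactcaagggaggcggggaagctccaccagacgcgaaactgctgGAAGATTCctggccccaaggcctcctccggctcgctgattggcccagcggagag
Hspb1: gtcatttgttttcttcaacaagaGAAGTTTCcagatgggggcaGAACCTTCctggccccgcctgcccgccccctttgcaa

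Of the 10 members, 8 had a promoter entry of 300 bases (250 before and 50 after the start), and 7 of these 8 held GAANNTTC or TTCNNGAA at 1 or more of their start sites, against 15.1% of 32851 promoters in the same table. Each of these letter strings reads the same on both strands and overlaps the longer form. The longer form, GAANNTTCNNGAA or TTCNNGAANNTTC, was found in 2 members, Hsph1 and Hspd1, and in 0.603% of all promoters. Members with several start sites had more chances of a match, and per start site 8 of 13 held the shorter form. The windows of Dnajb1 held neither. In Bag3 the match lay after the start, and the matches are letters in a window, not measured binding.

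Hspa1a and Hspa1b encode the same inducible HSP70 and lie next to each other on chromosome 17 (Hspa1a 34969190 to 34972156, Hspa1b 34956436 to 34959238, GRCm38, minus strand), each as a single exon. Their transcripts were 93.6% identical over 2701 aligned bases. Of the 150-base windows of the transcripts, 39.7% in Hspa1a and 40.5% in Hspa1b also occurred in other genes, so bulk reads could be split between them, and the bulk fold changes, the ratios between assays and the ratios between single-cell libraries are also given for their sum. In the last 500 bases, which 3' single-cell reads mostly cover, 0 of 411 windows of 90 bases were shared for either gene. Other members also had 150-base windows that occurred in other genes: Hspb1 36.6%, Hsp90aa1 36.2%, Hspa8 21.9%, Hspd1 18.6% and Dnaja1 11.6%. In the last 500 bases Hspa8 had 24.6% and Hspb1 7.06% of windows shared. The effect of such sharing on the levels of these members was not tested.

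In undissociated vessels the inducible HSP70 genes fell in the AVF. Hspa1a was 31.5, 80.2 and 114 CPM (counts per 1000000 reads) in the lowest, median and highest contralateral vein and 3.96, 7.35 and 14.4 in the early AVFs. The 5 mid AVFs had 12.3, 6.77, 11.5, 8.59 and 6.60 CPM, and the 5 late AVFs had 7.75, 9.40, 26.5, 8.36 and 13.2. Every AVF library at each time lay below every contralateral vein, with late library 19 the highest of the AVFs.

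Hspa1a was 8.85-fold lower in early (log2 fold change −3.15, SE 0.44, adjusted p = 6.40e-06), 9.55-fold lower in mid (−3.26, SE 0.53, adjusted p = 0.000132) and 6.74-fold lower in late AVFs (−2.75, SE 0.52, adjusted p = 0.000755), by the edgeR quasi-likelihood test with Benjamini-Hochberg adjustment over 12673 genes. A gene was called at an adjusted p under 0.01 with at least a 2-fold change. In female mice alone the Hspa1a differences were −3.14, −3.40 and −2.66, with adjusted p of 0.0338, 0.033 and 0.0814, so no call was made. With only the 2 groups of a contrast in the fit, the late difference was −2.71 (adjusted p = 0.011) and not called. With sex as a term in the fit all calls on the members stayed as they were.

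Hspa1b followed, with a wider spread between control veins. It was 29.3, 132 and 527 CPM in the lowest, median and highest contralateral vein, and 18.2, 31.1 and 52.9 in early AVFs. Mid AVFs had 41.3, 36.9, 53.6, 30.3 and 23.0 CPM, and late AVFs had 40.9, 40.0, 110, 42.6 and 72.8. The groups overlapped at every time, through contralateral library 28 in early and mid and through 3 contralateral libraries (28, 34 and 632) in late.

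Hspa1b was 5.51-fold lower in early (log2 fold change −2.46, SE 0.44, adjusted p = 0.00018) and 5.86-fold lower in mid AVFs (−2.55, SE 0.53, adjusted p = 0.00173). With only the 2 groups of a contrast in the fit, the mid difference was −2.51 (adjusted p = 0.0302) and not called. In late AVFs the difference of −1.84 (SE 0.51, adjusted p = 0.0195) was not called. Summed, Hspa1a and Hspa1b were 6.18-fold (−2.63, SE 0.37, adjusted p = 6.95e-06), 6.60-fold (−2.72, SE 0.44, adjusted p = 0.000128) and 4.13-fold lower (−2.05, SE 0.43, adjusted p = 0.00217) in early, mid and late AVFs. Hspa1b made up 20.5% of the pair's reads in contralateral library 28, 44.3% in 632 and 63.3% in 34, against 76.6% to 82.7% in the other control veins and 70.2% to 85.8% in the AVFs.

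Hspb1 (HSP27), a small heat shock protein abundant in smooth muscle, fell in mid and late AVFs. The contralateral veins ranged from 159 to 551 CPM (median 282) and the early AVFs from 68.2 to 258 (median 141), with overlap. Mid AVFs had 86.4, 84.3, 67.1, 59.9 and 16.1 CPM, and late AVFs had 109, 131, 103, 109 and 76.7, all below every control vein. The difference of −1.08 in early AVFs (SE 0.36, adjusted p = 0.0314) was not called, while mid AVFs were 6.39-fold lower (−2.68, SE 0.45, adjusted p = 0.000214) and late AVFs 3.78-fold lower (−1.92, SE 0.44, adjusted p = 0.00446). The late call was lost without late library 16, 17, 19 or 24, at log2 fold changes that stayed between −2.02 and −1.73 over all left-out libraries.

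Dnaja1, a J-domain cochaperone of HSP70, was 247 to 644 CPM in contralateral veins, 93.2 to 294 in early, 203 to 246 in mid and 192 to 331 in late AVFs. All mid AVFs lay below all control veins, narrowly, and the other groups overlapped with them. Its differences of −0.92 (SE 0.20, adjusted p = 0.00129), −0.89 (SE 0.23, adjusted p = 0.0106) and −0.76 (SE 0.23, adjusted p = 0.0314) in early, mid and late AVFs were all under the 2-fold limit.

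The other 6 members had no called change against the contralateral vein. Hspa8, the constitutive HSP70, averaged 1069 ± 344 CPM (SD, n = 7), 1071 ± 415 (n = 8), 920 ± 199 (n = 5) and 972 ± 223 (n = 5) in contralateral, early, mid and late vessels, with log2 fold changes of 0.00, −0.41 and −0.33. Hsp90aa1, the inducible cytosolic HSP90, was 275 ± 86.6 CPM in early AVFs against 166 ± 93.2 in control veins (0.75, SE 0.28, adjusted p = 0.056). Hspd1, the mitochondrial chaperonin HSP60, went from 157 ± 31.3 to 176 ± 27.7 in early AVFs and was 124 ± 17.3 in mid and 120 ± 8.69 in late ones (−0.59, SE 0.21, adjusted p = 0.0682 in late).

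The J-domain cochaperone Dnajb1 (−0.15, −0.31 and −0.09), the HSP110 exchange factor Hsph1 (−0.18, −0.12 and 0.14) and the HSP70 exchange factor Bag3 (−0.02, −0.17 and −0.04) had log2 fold changes near 0 with wide spread in the control veins. Hsph1 there ran from 0.0869 CPM (2 reads, library 31) to 189, and Bag3 from 7.04 (library 31) to 94.4. In mid AVFs the SD of Bag3 was 3.19 around a mean of 52.0.

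In all, 2, 3 and 2 of the 10 members were called in early, mid and late AVFs against the contralateral vein, all lower, beside 6.45%, 3.31% and 2.85% of all tested genes called lower. All libraries of the AVF group lay below all control veins for 1, 3 and 2 members, beside 2.33%, 3.38% and 2.85% of tested genes. The median log2 fold change of the members was −0.17, −0.48 and −0.46, that of all tested genes −0.01, −0.10 and −0.09. The 3 contrasts share the control veins and are not separate observations of them.

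**Figure D1:**
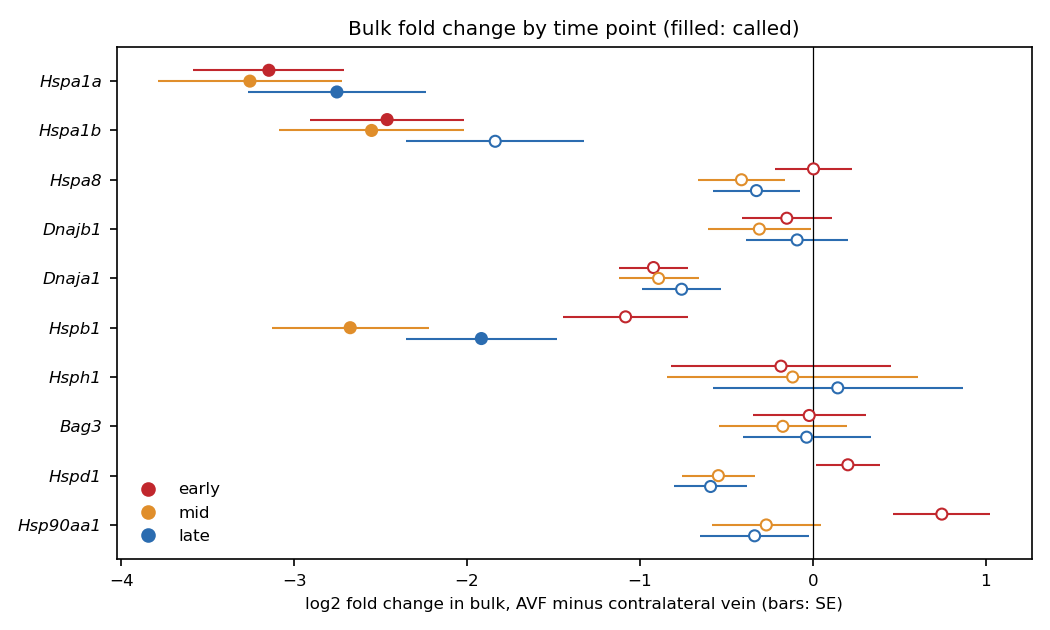
Log2 fold change of each member in early, mid and late AVFs against the contralateral vein in bulk RNA-seq, with error bars of 1 SE from the edgeR fit and filled points for called changes. Hspa1a lies furthest below 0 at each time, from −3.26 to −2.75, and 7 members carry no called change.

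Between AVF times, 0 of 10 members were called in mid against early, late against early or late against mid, by edgeR, beside 0.00789%, 3.01% and 0% of all tested genes called either way. At an unadjusted p under 0.05 there were 3, 2 and 0 members, and DESeq2 called 1, 0 and 0. Late against early, Hsp90aa1 was lower by 1.08 on the log2 scale (log2 fold change −1.08, SE 0.32, adjusted p = 0.0355) and all 5 late AVFs (130 to 163 CPM) lay below all 8 early ones (189 to 473), as 6.17% of tested genes did. Hspd1 had −0.79 (SE 0.21, adjusted p = 0.0176) in the same contrast. The median log2 fold change of 12 housekeeping genes was −0.93 in late and −0.87 in mid against early AVFs. That of all tested genes was 0.01 and 0.00, so these falls were not particular to chaperones. Hspb1 had −1.59 (SE 0.42, adjusted p = 0.0298) in mid against early, and this was the gene that DESeq2 called.

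The control veins were less complex libraries. Depth was 20254173 to 67457501 counted reads over the 25 libraries, and 2.86% to 22.5% of tested genes (median 13.5%) had no read in a contralateral vein, against at most 4.70% in an early, 0.300% in a mid and 0.237% in a late AVF. Without the 4 contralateral libraries that had over 10% of tested genes at 0 (28, 31, 34 and 632), an alternative chosen after seeing the data, the early, mid and late counts were 4, 5 and 3 members. Calls over all genes tested rose as well, from 1599, 767 and 676 to 2280, 1299 and 1114. Hspa1a then had log2 fold changes of −3.07, −3.18 and −2.67, and Hspa1b of −3.19, −3.29 and −2.57, all called. Hsph1, with log2 fold changes near 0 over all control veins, had −1.07 (adjusted p = 0.00134), −1.01 (adjusted p = 0.0078) in early and mid AVFs, both called, and was not called in late AVFs. Dnaja1 was called in early (−1.10) and mid AVFs (−1.07). The 4 veins left out held 0.0869 to 75.4 CPM of Hsph1 and the 3 kept held 128 to 189.

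Cell type markers moved with the same groups. The summed level of 6 smooth muscle markers was 8819 to 19591 CPM in contralateral veins, 1077 to 1959 in early, 1900 to 2342 in mid and 2222 to 3954 in late AVFs, with 5 of 6 called lower at each time. For 7 endothelial markers the sums were 2047 to 3416, 230 to 629, 512 to 740 and 621 to 838 CPM, with 5, 5 and 4 of 7 called lower. Those of 9 mono/macro markers were 1974 to 7490 CPM in control veins, 11946 to 27306 in early, 11996 to 15937 in mid and 8440 to 15575 in late AVFs, with 7, 1 and 1 of 9 called higher. The 5 skeletal muscle markers were at most 28.8 CPM in sum in the control veins and up to 8617 in late AVFs, with 5 of 5 called higher at each time. No marker of these 4 lists was at 0 throughout. In bulk tissue, fewer cells of a type and less RNA per cell cannot be told apart, and the part of the markers in the fall of Hspa1a, Hspa1b and Hspb1 was not tested.

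Across the 25 bulk libraries, the genes whose log2(CPM + 1) ranked most like Hspa1a were Cnn1 (Spearman's rho 0.83), Ppp1r14a (0.82), Id4 (0.81), Tinagl1 (0.81) and Wfdc1 (0.79). Those most like Hspa8 were Stip1 (0.75), F11r (0.72), Ahsa1 (0.71), Puf60 (0.71) and Abi3 (0.71), and those most like Hspd1 were Psma1 (0.87), Mrpl35 (0.82), Med10 (0.82), Med21 (0.82) and Pts (0.80). With the group means removed, Hspa8 still ranked with Hsph1 (0.75) and Dnaja1 (0.74), and Hspa1a with Hspa1b (0.54). All are descriptions over libraries that share groups, depth and complexity.

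Per kilobase of exon, the members' order in contralateral veins was Hspb1 (341 CPM per kilobase), Hspa8 (249), Hspa1b (70.5), Hspd1 (59.4), Dnaja1 (42.6), Hsp90aa1 (42.2), Dnajb1 (28.2), Hspa1a (25.4), Bag3 (19.7) and Hsph1 (10.99). In early AVFs Hspa8 (249) was first and Hspa1a (2.70) last. The order among neighbours such as Dnaja1 and Hsp90aa1 rests on differences smaller than the spread between libraries.

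In dissociated cells every member stood above every bulk library of the group of the same name, in all 3 libraries. The share of all genes that did so was not counted. In the contralateral group the margin was narrow for Hspb1, Hspa8 and Dnaja1, at 1.02, 1.18 and 1.23 times the highest bulk vein. The members held 1.63%, 1.63% and 3.70% of the UMIs (counted molecules) of the contralateral, early and late libraries, against 0.154% to 0.406%, 0.154% to 0.284% and 0.148% to 0.246% of bulk reads. Each single-cell group is 1 library, so no test was possible, and the Poisson intervals given are for 95% and cover counting error only.

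**Figure D2:**
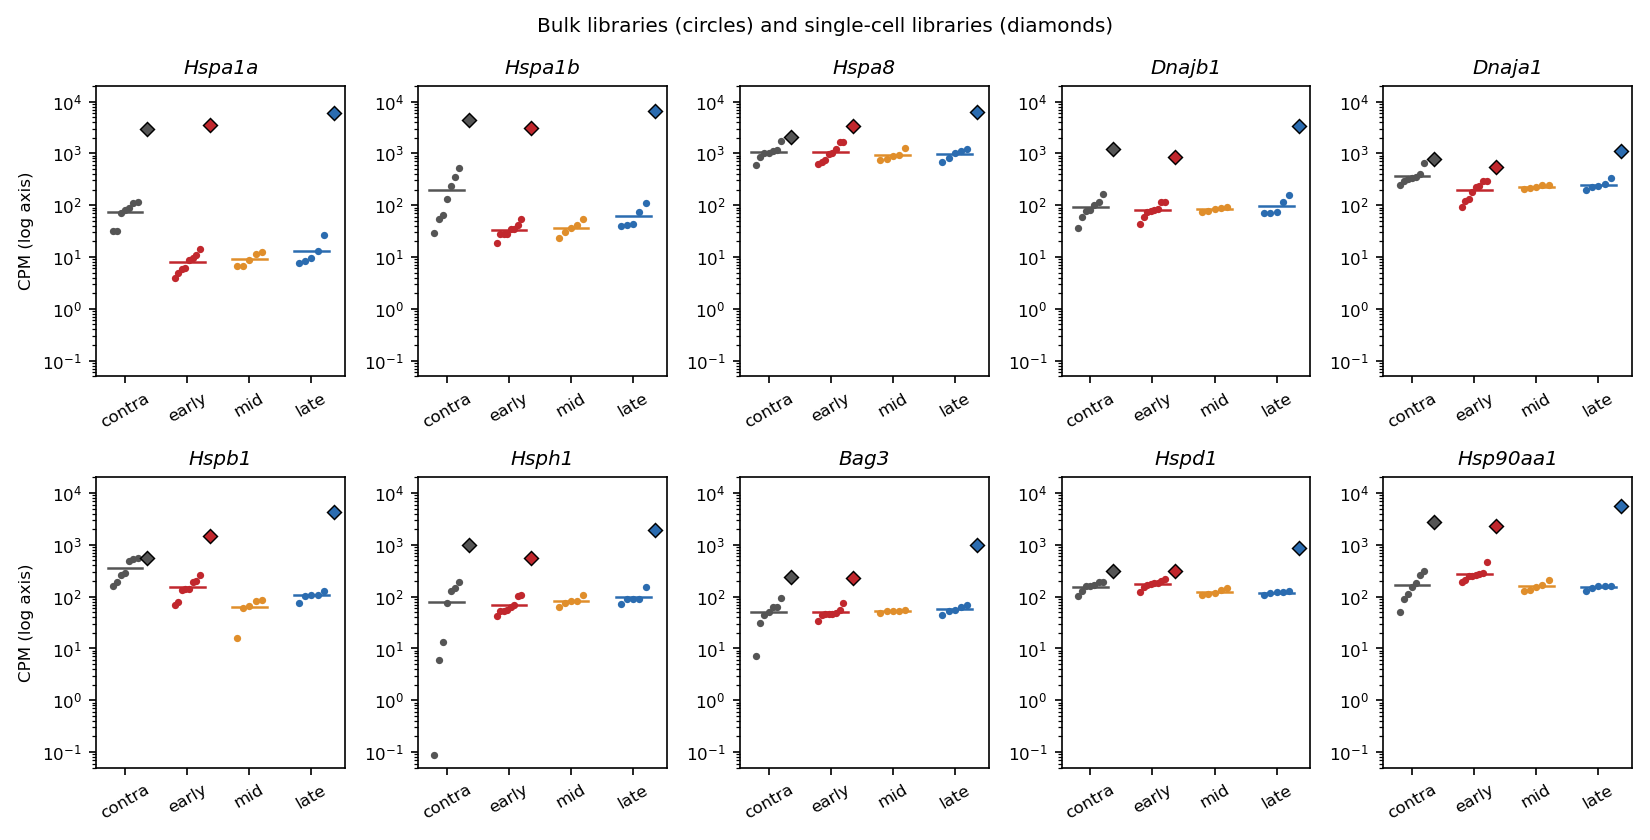
CPM of the 10 members, on a log axis, with 1 circle for each bulk library, a line for the group mean and a diamond for the summed single-cell library of that name. All diamonds lie above the circles of their group, most widely for Hspa1a in each of the 3 groups and least for Hspb1 in the contralateral vein (561 CPM against a highest bulk vein of 551).

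Hspa1a was the gene furthest apart. Its summed level was 2962 CPM (2942 to 2982) in the contralateral, 3498 CPM (3483 to 3514) in the early and 6067 CPM (6051 to 6082) in the late single-cell library. These were 39.4, 437 and 465 times the bulk means of 75.2 ± 33.5 (n = 7), 8.001 ± 3.51 (n = 8) and 13.1 ± 7.81 (n = 5), and 26.1, 243 and 229 times the highest bulk library. After adding 10 CPM on both sides, Hspa1a ranked 8, 1 and 1 from the top of the 12371 genes measured in both assays.

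Hspa1b stood at 4458, 3114 and 6449 CPM, or 22.6, 93.8 and 105 times the bulk means, with ranks of 14, 3 and 6. As a sum the pair was 27.2, 160 and 169 times the bulk mean. Hspa1b was 60.1%, 47.1% and 51.5% of the pair's UMIs in the contralateral, early and late library. The early and late shares were lower than in every AVF bulk library. The contralateral share lay within the range of the contralateral bulk veins (20.5% to 82.7%).

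The inducible HSP90 gene, a J-domain gene and the exchange factors were also several times their bulk means. Hsp90aa1 was 16.4, 8.30 and 37.6 times its bulk mean, Dnajb1 13.4, 10.5 and 34.3 times, and Hsph1 12.5, 8.19 and 19.9 times, in the contralateral, early and late comparison. Bag3 was 4.77, 4.62 and 17.6 times its bulk mean.

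Hspa8, Dnaja1 and Hspd1 had the lowest ratios of the members in the early and late comparisons, and Hspb1 the lowest in the contralateral one. Hspa8 was 1.90, 3.22 and 6.40 times, Dnaja1 2.15, 2.80 and 4.42 times, and Hspd1 1.98, 1.79 and 7.40 times the bulk mean. Hspb1 was 1.60, 9.75 and 40.0 times. Bulk reads scale with transcript length and 3' UMIs do not, and Hspb1 is the shortest member (1.031 kilobases of exon). With bulk values per kilobase (transcripts per 1000000), Hspb1 in the contralateral vein turned to 0.595 times the bulk value, and no other ratio of a member in any library went under 1.

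At 4-fold or more above bulk with 10 CPM added, there were 6, 7 and 10 of 10 members in the contralateral, early and late library, beside 1.68%, 1.47% and 2.05% of the 12371 genes. Bag3 lay just inside the limit in the contralateral and early libraries (4.14 and 4.01-fold), and it dropped out without contralateral library 31 or 34 (count 5) and without any of early libraries 1 to 6 (count 6). The median member log2 ratio was 2.77, 2.94 and 4.57, that of all genes −0.31, −0.41 and −0.57.

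Of the other genes of the chaperone network, few were as far above bulk. Some lay far below it. In the contralateral comparison 2 of 5 other small heat shock proteins were 4-fold or more below bulk, the lowest at a log2 ratio of −3.52. In the late comparison 1 of 15 endoplasmic reticulum chaperones was, at −2.03. The median log2 ratio of single cell over bulk lay between −1.35 and 0.18 for the 8 chaperone lists other than the members and for the housekeeping list. Among the genes highest in their lists were the J-domain gene Dnaja4 (1.85, 2.58 and 3.55 in the contralateral, early and late comparison), the cochaperonin Hspe1 (1.60, 1.21 and 3.57), which pairs with Hspd1, and the constitutive HSP90 gene Hsp90ab1 (1.32, 1.03 and 1.89). Hsf1, the factor itself, had −0.77, −1.17 and −1.37. The immediate early genes, transcribed within minutes of many stimuli, had medians of 2.91, 3.93 and 3.56, with 11, 13 and 12 of 16 at 4-fold or more, Fosb highest (6.01, 5.88 and 7.07) and Egr2 lowest (0.85, 1.36 and 0.14).

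**Figure D3:**
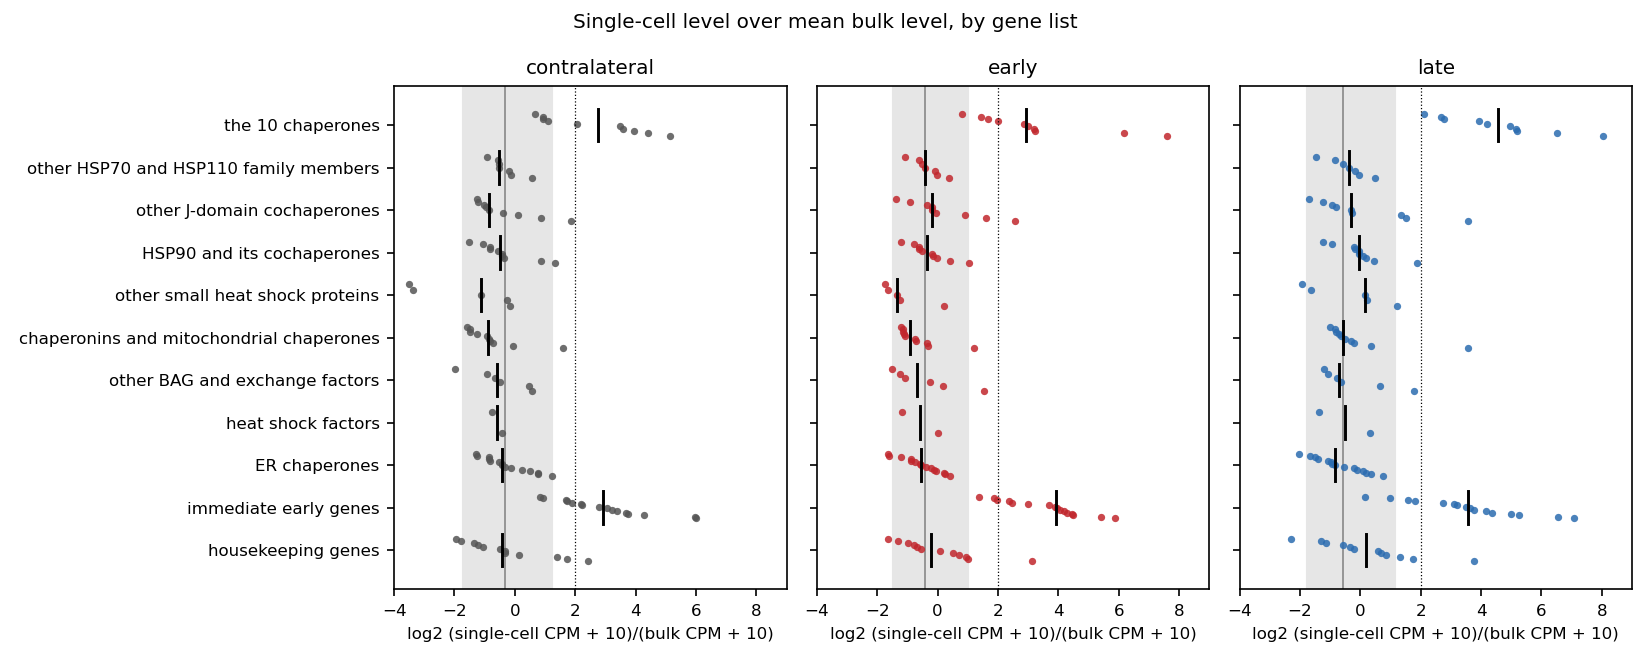
Log2 ratio of the single-cell library over the bulk mean of the group of the same name (10 CPM added to both). Points are genes of each list, black bars list medians, the grey line and band the median and the 5th to 95th percentiles of all genes, and the dotted line the 4-fold limit. Members and immediate early genes have medians above 2.7 in each library, and the other lists lie near or below 0.

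In bulk, of those 92 pathway and housekeeping genes 5 were called higher and 2 lower in early, 1 lower in mid and 1 lower in late AVFs against the contralateral vein, beside 1599, 767 and 676 of all 12673 genes called either way. The higher genes in early AVFs included the endoplasmic reticulum chaperones Sdf2l1 (1.59, adjusted p = 0.00774) and Manf (1.16, adjusted p = 0.00307). The lower ones were the J-domain gene Dnajb4 (−1.67, adjusted p = 0.00155) and the immediate early gene Nr4a1 (−1.83, adjusted p = 0.00362). Bag1, a relative of Bag3, was the lower gene in mid (−2.30, adjusted p = 0.00154) and late AVFs (−2.35, adjusted p = 0.00158). In late against early AVFs, 5 of the 92 were lower, beside 289 of all 12673 genes called lower. Of these 5, 4 were housekeeping genes and 1 a chaperone gene, Hspe1 (−2.01, adjusted p = 0.00355).

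The assays also differed in how the groups were ordered. Late over contralateral, the single-cell libraries were higher for all 10 members, and 7 of these were 2-fold or more higher, as 3.45% of all genes were. Hspb1 was 7.53 times, Bag3 4.21, Hspa8 3.06, Hspd1 2.86, Dnajb1 2.77, Hsp90aa1 2.10, Hspa1a 2.05, Hsph1 1.97, Hspa1b 1.45 and Dnaja1 1.38 times the contralateral library. The sum of Hspa1a and Hspa1b was 1.69 times in late and 0.891 times in early, so the pair together was not higher in the early library. For Hspb1 this stood beside 5 late bulk AVFs all below the 7 control veins, and for Hspa1a likewise. Early over contralateral, 4 members were higher and 1, Hspb1 (2.64 times), reached 2-fold, beside 5.04% of all genes, while Hspa1b had 0.70, Dnaja1 0.69 and Hsph1 0.56. The early count rests on the barcode filter: over all deposited barcodes 7 members were higher and 2 reached 2-fold, and in the removed barcodes alone all 10 did.

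The libraries differed in ways that go with these orders. Median UMIs per kept cell were 2751, 8951 and 15425, and of 11563, 7074 and 7801 deposited barcodes 6319, 4753 and 5821 were kept. Between 14 and 19 barcodes were shared by any pair of libraries. Cells were grouped without the members, the pathway lists or the markers, and 10 classes were named from markers. These are called "-like", because only markers name them. The B cell-like cluster was led by immunoglobulin genes. The platelet-like cluster had only 12.2% of its libraries' median depth, and 1 further cluster of shallow cells (216, 677 and 548 cells), led by Pth and Chga, was not named. Fibroblast-like cells were 29.4%, 8.63% and 34.0% of kept cells, mono/macro-like 9.75%, 44.1% and 28.8%, endothelial-like 12.8%, 1.45% and 1.29% and smooth muscle-like 0.601%, 4.94% and 8.90%.

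The high level was not measured in 1 class only. Hspa1a exceeded the highest bulk library in 10 of 10 classes of the contralateral, 9 of 9 of the early and 9 of 9 of the late library. RNA free in the droplets can add counts to any class, and its part was not tested. The share of all genes above bulk by class was not counted. The lowest were erythroid-like cells, at 224 CPM in the contralateral (1.97 times the highest bulk vein) and 252 CPM in the early library, and neutrophil-like cells at 1445 CPM in the late library. The highest were mono/macro-like cells at 6645 CPM in the contralateral, T cell-like cells at 4444 CPM in the early and Schwann-like cells (24 cells) at 11834 CPM in the late library. In the late library all 10 members exceeded the highest late bulk library in all 9 classes. In the contralateral library this held in 3 of 10 classes for Hspb1, 4 for Hspa8 and Bag3, 5 for Dnaja1, 6 for Hspd1, 7 for Dnajb1, 8 for Hsph1 and 9 for Hspa1b and Hsp90aa1.

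Which class stood highest depended on the member. In the contralateral library T cell-like cells were the highest class for Hspa8 (5177 CPM), Dnajb1 (3122), Dnaja1 (3071), Hsph1 (1993) and Hsp90aa1 (7814). Mono/macro-like cells were highest for Hspa1a (6645), Hspa1b (8896) and Hspd1 (628). Smooth muscle-like cells (38 cells) were highest for Hspb1 (3192) and fibroblast-like cells for Bag3 (392).

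In the early library fibroblast-like cells were the highest class for Dnajb1 (2383 CPM), Hspb1 (4338), Hsph1 (964), Bag3 (599) and Hspd1 (607). In the late library smooth muscle-like cells were highest for Hspb1 (9577), and fibroblast-like cells for Hspa8 (6518), Dnajb1 (4910) and Bag3 (1530). Hspb1 was low in T cell-like cells in all 3 libraries (276, 152 and 399 CPM). Dnaja1 was highest in T cell-like cells in all 3 (3071, 1402 and 2252 CPM).

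**Figure D4:**
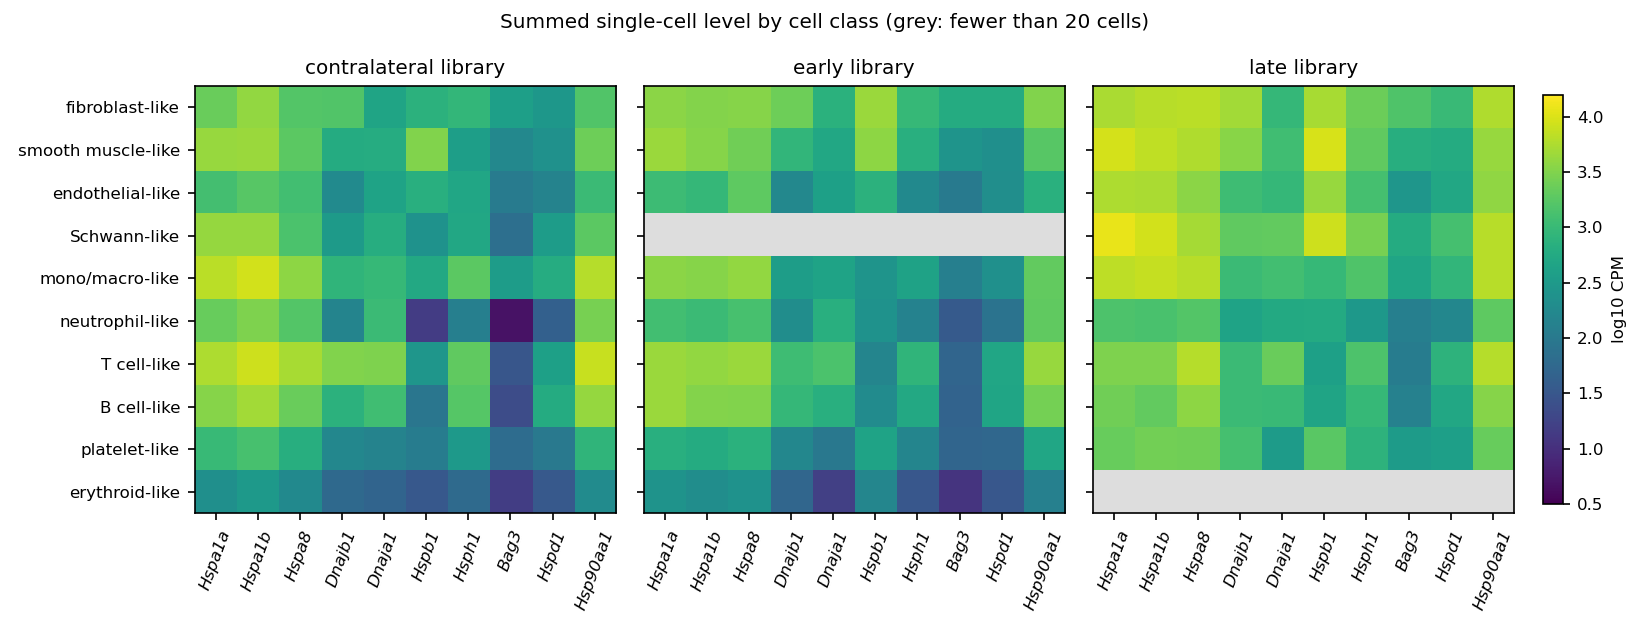
Summed level (log10 CPM) of each member in each marker-named class of the contralateral, early and late single-cell libraries, with classes of fewer than 20 cells in grey. Hspb1 was 753 to 9577 CPM in smooth muscle-like and fibroblast-like cells and 152 to 399 in T cell-like cells, and erythroid-like cells were at most 308 CPM for any member.

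Within classes, the late over contralateral ratios ranged from below to well above 1. In fibroblast-like cells 8 of 10 members were 2-fold or more higher and all 10 were higher (median ratio 3.32). In smooth muscle-like cells 7 were (median 2.77), and in endothelial-like cells all 10 (median 3.34), with Dnajb1 at 6.07 and Hspb1 at 6.35 times. In mono/macro-like cells none reached 2-fold (median 1.25), and in T cell-like cells 1 did, Bag3 (median 0.762), while Dnajb1 (0.34), Hspa1b (0.37) and Hspa1a (0.56) were lower. Fibroblast-like cells came mostly from cluster 2 in the contralateral library (1661 cells) and from clusters 3 and 7 in the AVFs, and mono/macro-like cells from cluster 12 (549 cells) and from clusters 0 and 1, so a class did not hold the same cells in each library. With 1 library a group these differences were not tested. The share of all genes 2-fold or more higher within a class was not counted, so the counts stand without a background. Some classes were small, with 38 contralateral smooth muscle-like and 75 late endothelial-like cells.

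**Figure D5:**
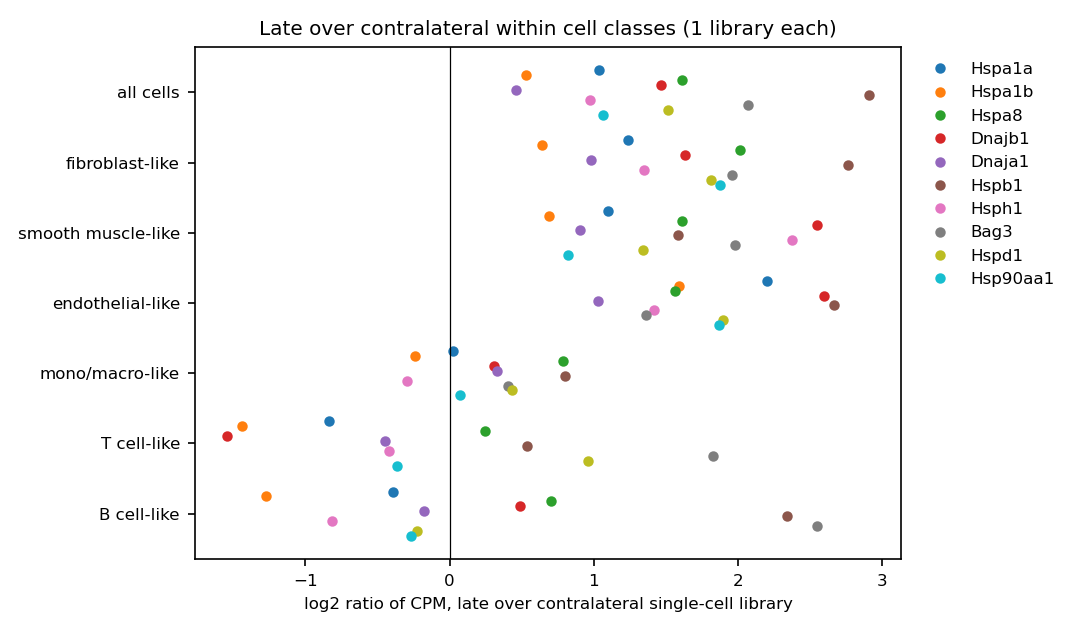
Log2 ratio of the late over the contralateral single-cell library for each member (1 point each) over all cells and within cell classes, with 1 library a group and no error bar. In fibroblast-like, smooth muscle-like and endothelial-like cells all 10 points lie above 0, and in mono/macro-like cells 8 do.

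Early over contralateral, the classes went different ways. In fibroblast-like cells 9 members were higher (median ratio 1.58), with Hspb1 at 5.76 times. In mono/macro-like cells 1 was, Hspa8 at 1.08 times (median 0.408), with Hsph1 at 0.23 and Hsp90aa1 at 0.34 times. Smooth muscle-like and endothelial-like cells had medians of 1.09 and 0.904. The share of all genes higher within a class was not counted here either.

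The shares of cells with a UMI were set on a common depth by thinning each cell to 1000 UMIs, which left out 1172, 433 and 389 shallower cells. Hspa1a was then detected in 50.3%, 65.3% and 75.3% of cells (67.3%, 90.5% and 98.1% unthinned), Hspb1 in 15.4%, 31.4% and 58.3%, and Bag3 in 11.2%, 12.4% and 37.9%. No class can be taken to lack chaperones. The lowest for Hspa1a was the erythroid-like class, at 22.7% of 853 thinned contralateral cells (19.97 to 25.7, exact binomial; 48.4% unthinned, median depth 2687 UMIs), against 79.1% of 541 mono/macro-like cells (75.4 to 82.5; 85.2% unthinned, median depth 3484). RNA free in the droplets can give such counts, and its part was not tested. The 10% of contralateral cells with most Hspa1a UMIs held 56.5% of them after thinning, and the same share of late cells held 41.6%.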

How the data were processed

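Bulk values were raw read counts per gene deposited by the authors from poly(A)-selected libraries, and single-cell values were UMI counts deposited per library as Cell Ranger 6.0.2 matrices (per the file headers). The labels name STAR, Cell Ranger, mm10 and GRCm38 without a role, and for the bulk table the annotation release and counter were not given in the sources used here. Gene positions are from GRCm38. Members, lists and tests were chosen with earlier results of these data known.

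Genes with a mean normalised count of at least 100 (12673) were tested with edgeR 4.0.16 (TMM, quasi-likelihood F test, 1 fit of 4 groups over 25 libraries). Called genes had a Benjamini-Hochberg adjusted p under 0.01 and a 2-fold change. DESeq2 1.42.0 was an alternative. Printed CPM are per 1000000 counted reads or UMIs of a library. Fold changes come from the fit, and SE is the log2 fold change over the square root of F. The fit was also run on simulated counts whose spread between libraries was set lower than that estimated from the data. That run does not measure the errors of the fit here. The methods allocate 25 mice to bulk sequencing, as many as the libraries, and no label ties a library to an animal.

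Of 26438 barcodes, the 16893 with 200 to 6000 genes detected and no more than 10% of UMIs mitochondrial were kept, then clustered in scanpy 1.11.5 (1938 variable genes, 12 components, 20 neighbours, Leiden resolution 0.5). Scrublet called 0, 2 and 120 doublets. It did not work for the contralateral library, and none were removed. Classes needed 20 cells. The text names all members, up to 4 called genes per list and contrast by adjusted p, the highest and lowest genes of lists by ratio, and the 5 genes most like Hspa1a, Hspa8 and Hspd1. Dnaja4, Hspe1, Hsp90ab1 and Hsf1 stand for their lists in that rule. A gene that the rule would name is not reported here.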

Additional observations from a re-analysis of the deposited data

Results flagged for a closer look

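Bulk values were checked in 44 sets, each a member or the sum of Hspa1a and Hspa1b in 1 group. In 3 sets a library lay far from the others by Dixon's criterion. Chance gives this in about 1 in 20 sets, and the sets of the sum overlap those of its genes. Dnaja1 was 644 CPM in contralateral library 35, with the other control veins between 247 and 393. Hsph1 was 151 CPM in late library 19, with the other late AVFs between 71.6 and 91.4. Hsp90aa1 was 473 CPM in early library 7, with the other early AVFs between 189 and 291.

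In 3 comparisons whose bulk groups did not overlap, the single-cell ratio lay on the other side of 1 from the bulk difference. Other members with overlapping bulk groups also had opposite signs. The differences were not tested, since each single-cell group is 1 library. Hspa1a was 1.18 times the contralateral level in the early and 2.05 times in the late single-cell library, while all early and all late bulk AVFs lay below all control veins. Summed with Hspa1b, whose bulk reads can be split with it, the ratios were 0.891 and 1.69, so in the early library the opposite direction was not found for the sum. Hspb1 was 7.53 times the contralateral level in the late single-cell library, while all late bulk AVFs lay below all control veins.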

How the results depend on the processing

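No paired analysis was possible because the library numbers of the bulk groups are all different and the single-cell groups are 1 library each. No member's called bulk difference changed direction. With bulk values per kilobase of exon, the contralateral log2 ratio of single cell over bulk of Hspb1, under the 4-fold limit, went from 0.66 to −0.74. Against the contralateral vein, 2, 3 and 2 members were called (early, mid, late). Leaving out 1 library gave 2 to 2, 3 to 3 and 1 to 3, and the late count fell without late 16, 17, 19 or 24 (Hspb1) and rose without contralateral 28 or 34 (Hspa1b). Female mice only gave 0, 0 and 0. At any fold with adjusted p under 0.05 the early and late counts were 4 and 4, with Hspa1a and Hspa1b summed the early count was 1, and with only the 2 groups compared the late count was 1 (Hspa1a lost, −2.71) and the mid count 2 (Hspa1b lost, −2.51). Without the 4 contralateral libraries with over 10% of tested genes at 0 the early and mid counts were 4 and 5.

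Mid against early went from 0 to 1 with DESeq2, 1 with the likelihood ratio test, 1 at adjusted p under 0.05 with 2-fold and 2 at any fold. Late against early went from 0 to 1 at adjusted p under 0.05 with 2-fold, 2 at any fold, 1 with only the 2 groups compared and 1 without those 4 libraries. Both, and late against mid, were 0 to 0 on leaving out 1 library. The summed pair had −2.98, −2.98 and −2.14 in female mice only (not called). Leaving out 1 library gave −2.76 to −2.35, −2.92 to −2.31 and −2.44 to −1.64, the last without a call when late 16 or 17 was left out. Of the members' other alternatives in bulk, 172 stayed on the same side of the threshold, 23 gained a call and 9 lost it.

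Members 4-fold or more above bulk were 5 to 6, 6 to 7 and 10 to 10 on leaving out 1 bulk library (lower without contralateral 31 or 34, or early 1 to 6). Early over contralateral, members higher in single cells went from 4 to 7 with all barcodes and 10 with removed barcodes only, and those 2-fold or more higher from 1 to 2 and 10. The removed barcodes were unlike between these libraries, and the cause of these changes was not tested. Among alternatives for single members' ratios, 50 moved by more than the spread between bulk libraries and 100 did not.

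Over all genes, 1599, 767, 676, 1, 381 and 0 were called in the 6 contrasts (early, mid and late against contralateral, mid and late against early, late against mid). DESeq2 called 2440, 1418, 1293, 472, 753 and 1, no filter 3938, 2728, 2567, 1, 208 and 0, and only the 2 groups compared 632, 339, 223, 0, 587 and 0. Female mice only gave 327, 192, 173, 0, 0 and 0. Without the contralateral libraries with over 10% of tested genes at 0 the counts were 2280, 1299, 1114, 5, 1115 and 0. The summed counts per library limit precision least for the abundant members, and no replicate exists for the single-cell levels.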
